A study of Homo sapiens with 4 samples.

Results

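The metalloproteinase genes of the MMP, ADAM and ADAMTS families were examined for lactylation of histone H3 at lysine 9 (H3K9la) in KYSE30, an established line of oesophageal squamous cell carcinoma. Members were the protein-coding genes of the RefSeq GRCh38.p14 table whose symbol is MMP, ADAM or ADAMTS, then a number and at most a single letter. The rule gave 62 genes out of 19974 (chromosomes 1 to 22 and X), namely 23 MMP, 20 ADAM and 19 ADAMTS genes. MMP24OS and MMP24-AS1-EDEM2 begin with the same letters but carry a longer suffix, and were set aside. A record is a single peak of a deposited list, and it was assigned to a gene when at least 1 base lay in the gene or within 5 kb of it.

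H3K9la chromatin immunoprecipitation was sequenced in an arm named sg3 and in an arm named V2, with an input library for each, which makes 4 samples and 1 ChIP library per arm. The labels give the same cell line and growth medium for both arms and do not define either name; the series title names SIRT3 as an enzyme that removes the mark, and how the arms relate to SIRT3 is not stated there. A peak list was deposited for each arm, with 56875 records for sg3 and 40332 for V2, and in the deposit the V2 list is attached to the sample titled as V2 input. Whether that list was called on the V2 ChIP library is not stated, so its records are given as V2 records and not as established H3K9la peaks. Every comparison of the arms is between 2 lists of 1 library each, without a replicate check and without a test, and read depth is not stated. Fold enrichment (ChIP pileup over local background at the summit) and -log10 q are the authors' values from MACS2 and rank records within their own list only. Confidence intervals are exact Clopper-Pearson 95% intervals and cover counting error only. As a check of the labelled cell type, 12 of 12 squamous epithelial marker genes had an sg3 record and 11 of 12 had a V2 record. A record is common at any gene: 59.4% of all protein-coding genes had one in sg3 and 41.8% in V2. Of 8 fibroblast and endothelial markers 4 had a record in sg3 and 4 in V2. These were VWF (17 sg3 and 27 V2 records), CDH5 (15 and 7), COL1A1 (6 and 4) and COL1A2 (2 and 1). PDGFRA, PDGFRB, PECAM1 and KDR had none. Of 6 blood markers 6 had a record in sg3 and 4 in V2. A record near a gene was thus not specific to genes of the labelled cell type.

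These enzymes are zinc-dependent proteases of the cell surface and the matrix. MMPs cut collagens, gelatin and other matrix proteins, and several are made by squamous carcinoma cells during invasion. Membrane-bound ADAMs release the outer parts of growth factor precursors and receptors, and secreted ADAMTS enzymes process procollagens, aggrecan, microfibril proteins and von Willebrand factor. Tissue inhibitors of metalloproteinases block many of them. H3K9la is a histone mark built from lactate, and histone lactylation has been linked to active promoters and enhancers.

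Metalloproteinase genes carried records less often than protein-coding genes did as a whole, in both lists. In the sg3 list 23 of 62 had a record, which is 37.1% (95% CI 25.2 to 50.3%), against 59.4% of all protein-coding genes. In the V2 list 15 of 62 had one, which is 24.2% (95% CI 14.2 to 36.7%), against 41.8% of all. All 15 were also in the sg3 list, 8 of 62 were in the sg3 list alone and 0 of 62 in the V2 list alone. Over all genes these shares were 41.2%, 18.2% and 0.646%, each larger than among the members. The remaining 39 of 62 had no record in either list, a larger share than the 40.0% of all protein-coding genes.

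**Figure D1:**
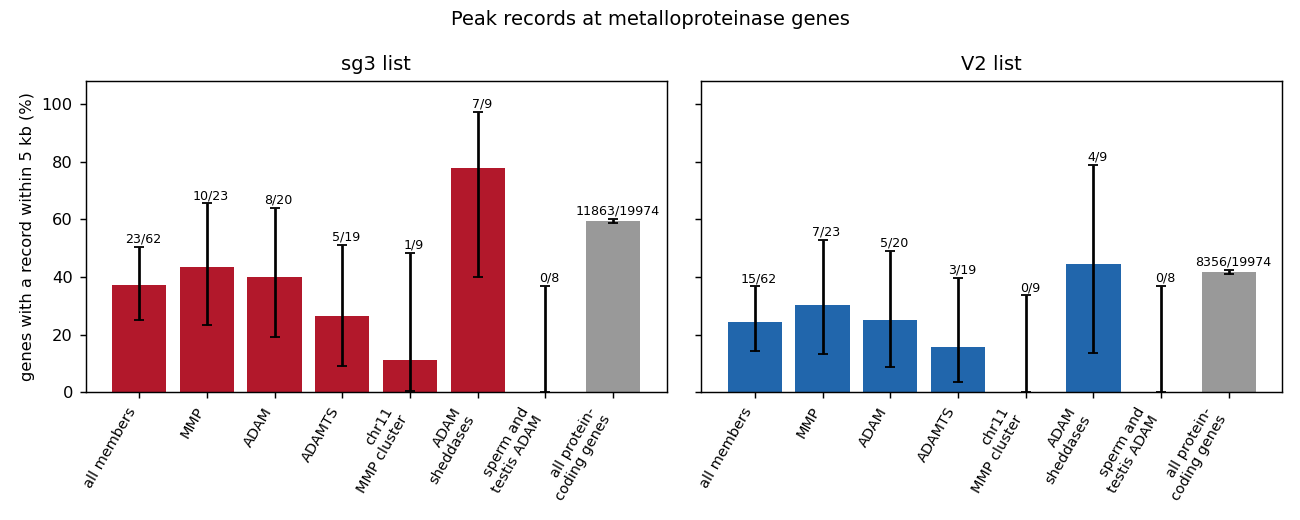
Percent of genes with a record in the gene or within 5 kb, in the sg3 list (left) and the V2 list (right); bars are shares, lines are exact 95% intervals and the numbers are genes with a record over genes in the group. All 3 families lie below the grey bar of all protein-coding genes (59.4% in sg3, 41.8% in V2), while 7 of 9 ADAM sheddases had an sg3 record.

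The families differed in order but with wide, overlapping intervals. MMP genes had an sg3 record in 10 of 23 cases (43.5%) and a V2 record in 7 (30.4%). ADAM genes had one in 8 of 20 (40.0%) and 5 (25.0%). ADAMTS genes had one in 5 of 19 (26.3%) and 3 (15.8%). The shares of all protein-coding genes were 59.4% and 41.8%. The order of MMP and ADAM depended on flanking records. Over the gene itself ADAM genes had a record in 8 cases in sg3 (40.0%) and 5 in V2 (25.0%). MMP genes then had one in 6 (26.1%) and 4 (17.4%), and ADAMTS genes in 3 (15.8%) and 3 (15.8%), against 51.9% and 33.7% of all genes. Over all genes the share with a record in or within 5 kb was higher in longer genes, which was not seen among the members by that count. Among protein-coding genes of 100 kb or longer 69.1% had an sg3 record and 53.9% a V2 record, whereas of the 19 members of that length 5 had one in sg3 (26.3%, 95% CI 9.15 to 51.2%) and 4 in V2 (21.1%, 95% CI 6.05 to 45.6%). Of the 22 members under 20 kb 9 had one in sg3 (40.9%, 95% CI 20.7 to 63.6%) and 6 in V2 (27.3%), against 49.4% and 33.1% of all genes of that length. Of the 21 members between these lengths 9 had one in sg3 (42.9%) and 5 in V2 (23.8%), against 66.9% and 46.8%. Over the gene itself, from the shortest class to the longest, the members' shares were 22.7%, 33.3% and 26.3% in sg3. In V2 they were 13.6%, 23.8% and 21.1%, so by this count the shortest members had the lowest share. The shares of all genes were 39.4%, 60.3% and 66.3% in sg3 and 22.4%, 39.4% and 51.4% in V2.

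Some of the assigned records lay over a neighbouring gene rather than over the protease gene. When only records over the gene itself were counted, 17 of 62 members had one in sg3 (27.4%, against 51.9% of all protein-coding genes) and 12 in V2 (19.4%, against 33.7%). In sg3 the members with flanking records alone were MMP2, MMP11, MMP19, MMP23B, ADAMTS4 and ADAMTS13, and all 8 of their records overlapped another protein-coding gene. In V2 they were MMP11, MMP23B and MMP25, and all 4 records did so. With every record over a gene outside the 3 families left out, a setting added after the values were seen, 24.2% of members and 19.3% of all protein-coding genes had an sg3 record, and 19.4% and 13.9% a V2 record, so the order turned round; this setting also takes from every other gene the records over itself.

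In all, 71 sg3 records and 45 V2 records were assigned to the members, and they were unevenly spread. The 5 members with the most records held 49.3% of the sg3 assignments (ADAM17, ADAM23, ADAM9, ADAMTS17 and ADAM8, where ADAM10 and MMP9 tied with the last pair at 4) and 66.7% of the V2 ones (ADAM17, ADAM8, ADAM9, ADAM23 and MMP9, where MMP24 tied with MMP9 at 3). Their fold enrichments were slightly below the median of each list. The sg3 ones had a median fold enrichment of 4.40, from 2.45 to 14.95, against 4.97 over the whole sg3 list. The V2 ones had a median of 4.87, from 2.65 to 12.86, against 5.22 over the whole V2 list. A V2 record overlapped 37 of the 71 sg3 records, which is 52.1% (95% CI 39.9 to 64.1%), against 51.8% of sg3 records at all protein-coding genes. An sg3 record overlapped 41 of the 45 V2 records, which is 91.1% (95% CI 78.8 to 97.5%), against 87.7%. Where records of the lists overlapped, their summits were close: of 42 overlapping pairs 26 had summits within 100 bases, with a median distance of 45 bases.

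**Figure D2:**
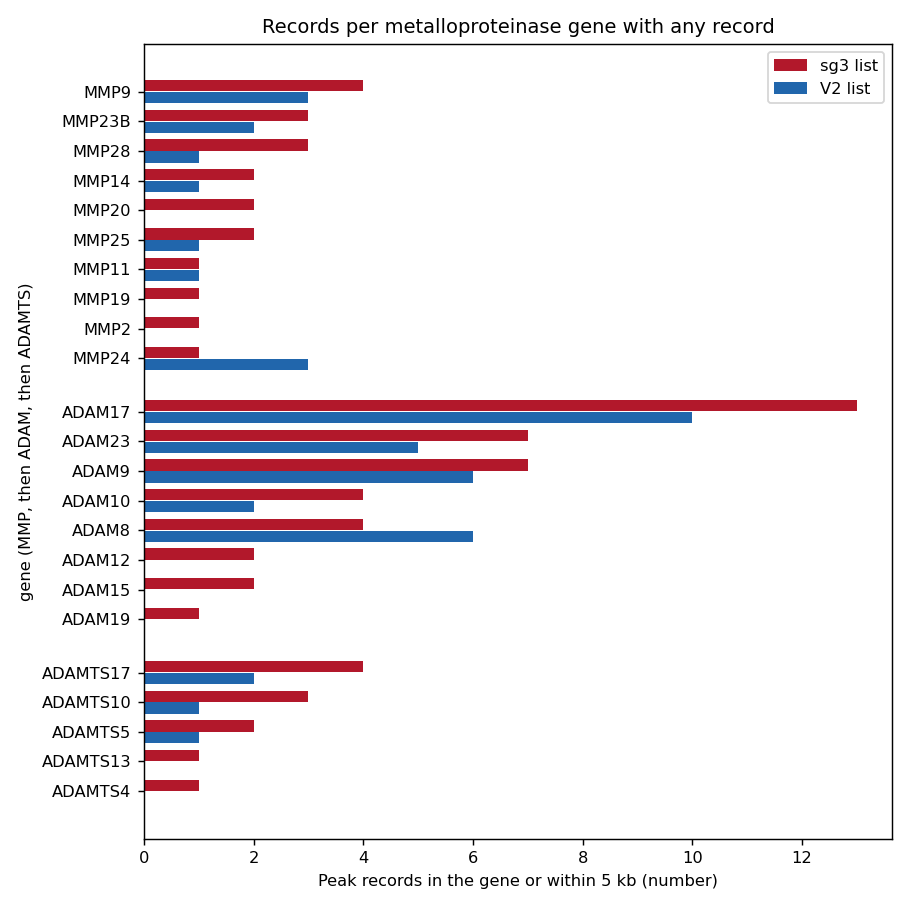
Number of records in or within 5 kb of each of the 23 metalloproteinase genes with any record, sg3 bar above V2 bar, grouped by family. ADAM17 leads both lists with 13 sg3 and 10 V2 records, and MMP24 and ADAM8 are the genes with more V2 than sg3 records.

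Among role groups of more than 3 genes, the ADAM sheddases had the highest share in the sg3 list. Of 9 ADAM genes taken as sheddases, 7 had an sg3 record (77.8%, 95% CI 40.0 to 97.2%) and 4 a V2 record (44.4%, 95% CI 13.7 to 78.8%), and both intervals include the 59.4% and 41.8% of all protein-coding genes. ADAM8, ADAM9, ADAM10 and ADAM17 were in both lists. ADAM12, ADAM15 and ADAM19 were in sg3 alone, while ADAM28 and ADAM33 had no record.

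ADAM17, which encodes the TNF-converting enzyme that also releases EGF receptor ligands, had the most records in both lists. It lies on chromosome 2 from 9488486 to 9555830 on the minus strand. All 13 sg3 records and all 10 V2 records had their summits in the upstream flank or within 18298 bases of the start, and they covered 7949 bases in sg3 and 7579 bases in V2. The strongest by -log10 q lay just upstream, from 9556035 to 9556637 in sg3 (fold enrichment 11.38, -log10 q 114.5, rank 387 of 56875) and from 9556056 to 9556585 in V2 (7.63, 69.4, rank 915 of 40332). Their summits stood at -490 and -462 bases from the gene start. A second record at the start ran from 9555051 to 9555767 in sg3 (10.59) and from 9555304 to 9555741 in V2 (5.70). A further pair of strong records lay in the gene body. The first had its summit 11212 bases from the start in sg3 (11.24, -log10 q 80.9) and 11239 bases in V2 (10.71, 64.8). The other stood at 10449 bases in sg3 (9.50, 51.0) and at 10411 bases in V2 (12.86, 51.4). In the V2 list the body record at 10411 bases thus had the highest fold enrichment of the gene (12.86). In sg3 the upstream record did (11.38), nearly level with the body record at 11212 bases (11.24). By -log10 q the upstream record was the strongest in both lists. Of the sg3 records 10 overlapped a V2 record, and 9 of the V2 records overlapped an sg3 record.

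ADAM10, the protease that cuts Notch receptors and the amyloid precursor protein, had its records at the start and little in its 160899 bases. On chromosome 15 the main sg3 record ran from 58748755 to 58749767 (fold enrichment 8.31, -log10 q 76.8, rank 1692) and the V2 record from 58748844 to 58749757 (7.28, 56.8, rank 1590), with summits 25 bases apart. An upstream neighbour had its summit at -1531 bases in sg3 (3.09, 7.0) and at -1484 bases in V2 (7.11, 15.8). The other sg3 records, from 58751873 to 58752244 and from 58734485 to 58734843, had no V2 partner.

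The promoters of ADAM17 and ADAM10 are shown as examples of the 6 members whose start was marked in both lists. In the promoters of these 6 genes CG pairs numbered from 10 in MMP14 to 41 in ADAM23. The sequence runs from 250 bases before the start to 50 bases from the start on, 5′ to 3′ on the gene's strand, with each CG pair in capitals (RefSeq, GRCh38.p14). ADAM17 (chr2:9555781-9556080, minus strand) has 36 CG pairs and a G+C content of 74.7%, and ADAM10 (chr15:58749658-58749957, minus strand) has 30 and 68.0%. ADAMTS2, a procollagen N-proteinase gene, is set beside them because its promoter (chr5:179345412-179345711, minus strand) has the most CG pairs of the members with a promoter sequence, 47, and yet had no record in or within 5 kb of the gene in either list.
ADAM17: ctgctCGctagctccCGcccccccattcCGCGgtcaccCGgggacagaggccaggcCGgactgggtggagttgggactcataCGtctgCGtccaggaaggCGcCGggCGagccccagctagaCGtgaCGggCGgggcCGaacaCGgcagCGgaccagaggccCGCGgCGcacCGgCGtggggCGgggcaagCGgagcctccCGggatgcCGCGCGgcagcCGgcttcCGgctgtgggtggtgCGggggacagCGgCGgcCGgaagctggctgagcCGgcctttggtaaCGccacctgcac
ADAM10: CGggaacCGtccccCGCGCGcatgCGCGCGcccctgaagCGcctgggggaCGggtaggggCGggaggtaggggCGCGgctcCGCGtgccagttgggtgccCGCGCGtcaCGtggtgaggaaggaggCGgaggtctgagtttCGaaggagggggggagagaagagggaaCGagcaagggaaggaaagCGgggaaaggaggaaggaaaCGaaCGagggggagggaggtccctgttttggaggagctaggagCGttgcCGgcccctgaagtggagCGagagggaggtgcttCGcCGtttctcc
ADAMTS2: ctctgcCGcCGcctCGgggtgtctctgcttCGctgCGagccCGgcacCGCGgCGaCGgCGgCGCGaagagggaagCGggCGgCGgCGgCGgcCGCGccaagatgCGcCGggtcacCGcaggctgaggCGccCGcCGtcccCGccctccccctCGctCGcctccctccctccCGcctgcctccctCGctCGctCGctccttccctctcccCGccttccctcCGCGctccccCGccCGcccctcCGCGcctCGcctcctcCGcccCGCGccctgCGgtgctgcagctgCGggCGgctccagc

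ADAM9, a widely expressed sheddase, and ADAM8, a protease known from leukocytes and carcinomas, were also marked in both lists. ADAM9 lies on chromosome 8 from 38996973 to 39105261, and its strand is not in the promoter table, so distances are from its lower-coordinate end. Across that end the sg3 record ran from 38996944 to 38997724 (fold enrichment 6.86, -log10 q 53.3). The V2 record lay just inside the gene, from 38997004 to 38997617 (5.83, 40.2). The sg3 record also reached TM2D2, which borders this end. Inside the gene a second block lay from 39036847 to 39040411 in sg3, with 2 records (6.36 and 3.09), and from 39035445 to 39040529 in V2, with 3 records (6.95, 8.97 and 7.59). At ADAM8 (chromosome 10, 133262423 to 133276868, minus strand) a single sg3 record of 6787 bases, from 133274576 to 133281362, spanned the start (7.04, -log10 q 41.0). In the same stretch the V2 list had 5 separate records with fold enrichments from 3.09 to 5.10, and the sg3 record also overlapped TUBGCP2. In all ADAM8 had 4 sg3 records covering 8312 bases and 6 V2 records covering 4576 bases, so the order by number and by length covered differs.

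**Figure D3:**
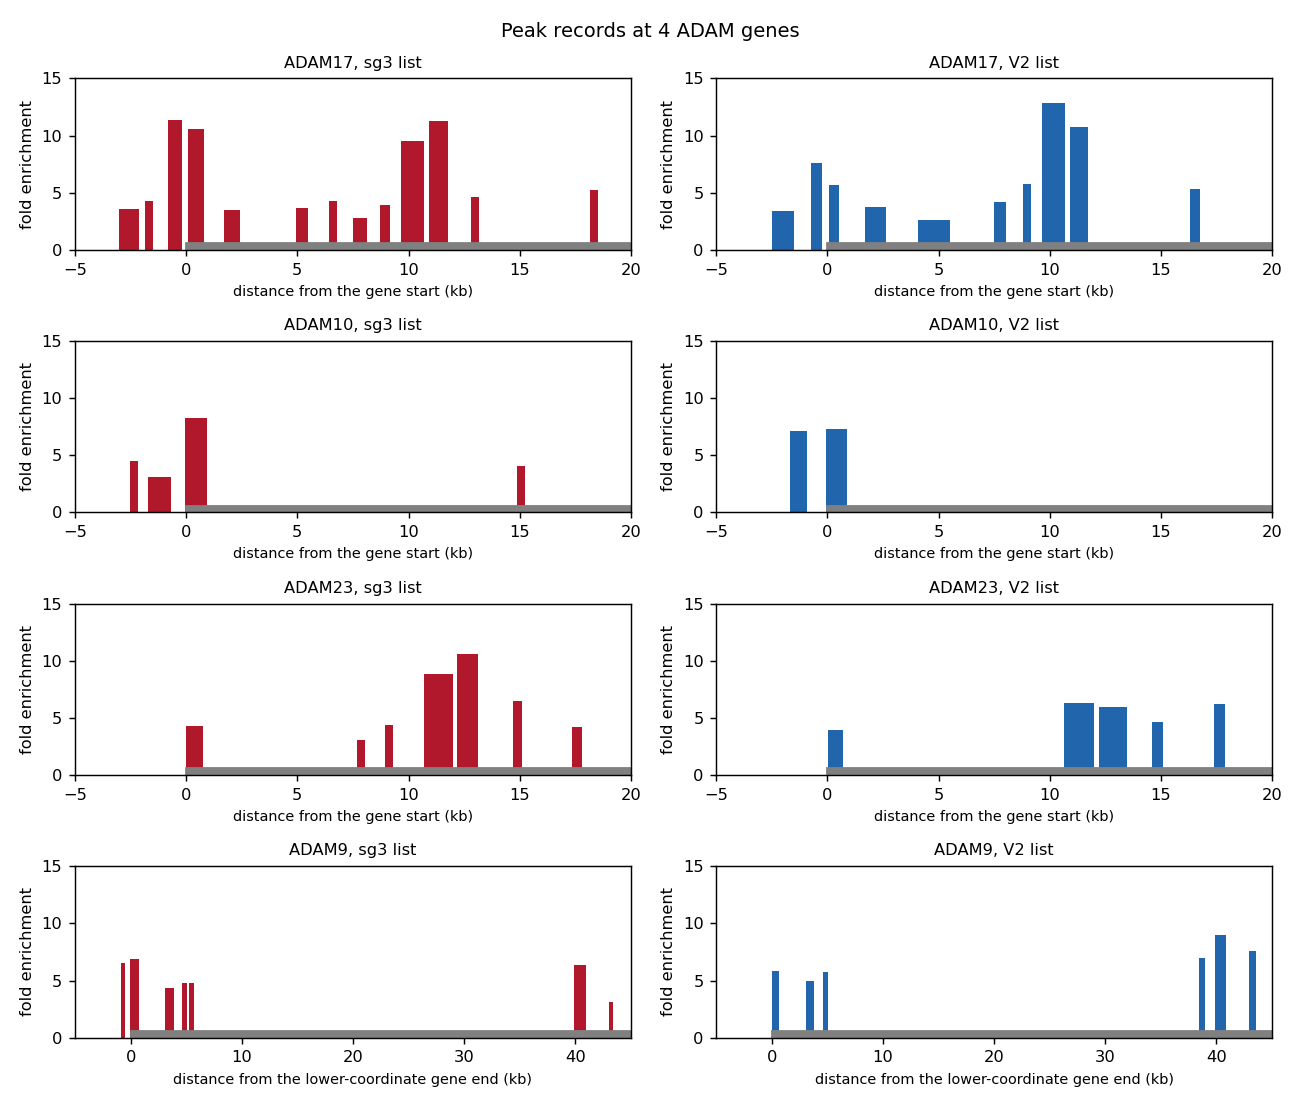
Records at ADAM17, ADAM10, ADAM23 and ADAM9 in the sg3 list (left) and the V2 list (right): x, distance in kb from the gene start (for ADAM9 from the lower-coordinate end), y, the authors' fold enrichment, which is not comparable between lists; bar width is the width of the record and the grey strip is the gene. The ADAM17 records at the start and near 10 to 11 kb appear in both lists.

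The 3 sheddases in the sg3 list alone had 1 or 2 records each, and 4 of these 5 records had a -log10 q under the sg3 list's median of 13.0. At ADAM15 a record from 155051528 to 155052223 on chromosome 1 lay just inside the start (fold enrichment 2.45, -log10 q 5.3), and the other lay past the gene over EFNA4. ADAM19, or meltrin beta, had a record at its start from 157575353 to 157575960 on chromosome 5 (2.92, 7.2). ADAM12, or meltrin alpha, had a record 183450 bases from its start (6.16, 10.5) and another 140405 bases from it (5.57, 8.7) in a gene of 376087 bases. The nearest V2 record was 19128 bases from ADAM15, 28269 bases from ADAM19 and 39156 bases from ADAM12.

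Of the ADAMs without protease activity, ADAM23, a neuronal adhesion protein that binds LGI1, was marked in both lists, while ADAM11 and ADAM22 had no record. ADAM23 had 7 sg3 records and 5 V2 records, all with summits within 17610 bases of the start of a gene of 177596 bases on chromosome 2. Its start carried a record from 206443535 to 206444296 in sg3 (fold enrichment 4.33, -log10 q 20.2) and from 206443568 to 206444218 in V2 (3.98, 20.1). The strongest sg3 record lay 12828 bases from the start (10.55, 26.2), and the overlapping V2 record was weaker in its own list (5.95, 7.8). All 5 V2 records overlapped an sg3 record. The 8 ADAM genes known mainly from sperm and testis (ADAM2, ADAM7, ADAM18, ADAM20, ADAM21, ADAM29, ADAM30 and ADAM32) had no record in either list. A count of 0 of 8 allows a share of up to 36.9% by the exact interval. Among all protein-coding genes 59.4% had an sg3 record, 41.8% had a V2 record and 40.0% had neither.

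MMP genes outside the chromosome 11 cluster were marked in 9 of 14 cases in sg3 (64.3%, 95% CI 35.1 to 87.2%) and in 7 in V2 (50.0%, 95% CI 23.0 to 77.0%), intervals that include the 59.4% and 41.8% of all protein-coding genes. Over the gene itself the counts were 5 in sg3 (35.7%, against 51.9% of all) and 4 in V2 (28.6%, against 33.7%), so the order against all genes turned round. MMP14, the membrane-type protease that activates pro-MMP2, was the MMP with a marked start in both lists, among the 12 MMP genes whose start is known here. On chromosome 14 (gene from 22836585 to 22847758, plus strand) sg3 had a record from 22836577 to 22837086 (fold enrichment 5.79, -log10 q 21.9) and another from 22837353 to 22839273 (6.92, 29.8). V2 had a record from 22837464 to 22837982 (5.35, 15.9), with its summit 44 bases from that of the second sg3 record, and none over the first. No protein-coding gene other than MMP14 overlapped these records.

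Of the gelatinases, MMP9 had records in both lists and MMP2 in sg3 alone. Within MMP9 (chromosome 20, 46008908 to 46016561) sg3 had records from 46009812 to 46010835 (fold enrichment 4.11) and from 46013224 to 46013776 (4.20), and V2 from 46012163 to 46012521 (3.87) and from 46012966 to 46013558 (4.34). All 4 had a -log10 q from 5.4 to 8.9, under the median of the list (13.0 for sg3, 12.6 for V2). The strongest record near MMP9, in sg3 with a -log10 q of 23.1, lay 4964 bases beyond its higher-coordinate end and over SLC12A5, with the summit 120 bases from an SLC12A5 start. A pair of overlapping records beyond the lower-coordinate end had fold enrichments of 3.58 in sg3 and 4.87 in V2. The MMP2 record, from 55509139 to 55509687 on chromosome 16 (4.40, 14.9), lay 2448 bases past the higher-coordinate end of MMP2 and over LPCAT2, so neither list had a record over MMP2.

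Of the other membrane-type genes, MMP24 and MMP25 were marked in both lists, while MMP15, MMP16 and MMP17 had no record. At MMP24, on chromosome 20, the sg3 record ran from 35276481 to 35279300 (fold enrichment 4.49, -log10 q 39.0) and the V2 record from 35276878 to 35278095 (4.00, 27.2). Both touched the last bases of MMP24, with summits 51145 bases from its start in sg3 and 51137 bases in V2, and 287 and 295 bases from the start of MMP24-AS1-EDEM2. V2 had 2 further records past the gene, with a -log10 q of 12.7 and 4.0. MMP25, a membrane-type protease of neutrophils, had an sg3 record over the gene (3058950 to 3060119 on chromosome 16, 5.20, -log10 q 23.6), which also overlapped LOC124900372, and the records near it in both lists covered IL32. MMP28, or epilysin, which is expressed in epithelia, had 3 sg3 records inside the gene and 1 V2 record. The V2 record ran from 35787968 to 35788326 on chromosome 17 (5.37, 9.5), within the sg3 record from 35787314 to 35788496 (4.94, 13.2). MMP11, or stromelysin-3, had a record over SMARCB1 in both lists, 2633 bases past the gene in sg3 and 2648 bases in V2. The records near MMP23B, 3 in sg3 and 2 in V2, lay over MIB2, and that near MMP19 lay over DNAJC14. MMP23B has a close pseudogene copy, MMP23A, and reads from the pair could be divided between them, so its values are uncertain.

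The MMP cluster of chromosome 11 holds 9 genes over 435225 bases, from 102520508 to 102955732, in the order MMP7, MMP20, MMP27, MMP8, MMP10, MMP1, MMP3, MMP12 and MMP13. It includes the collagenases (MMP1, MMP8 and MMP13), the stromelysins MMP3 and MMP10, the macrophage elastase MMP12, matrilysin (MMP7) and the enamel protease MMP20. In sg3 1 of the 9 genes had a record (11.1%, 95% CI 0.281 to 48.2%), and in V2 0 of 9 did, which allows up to 33.6% by the exact interval. Of all protein-coding genes 59.4% had one in sg3 and 41.8% in V2, and of those under 20 kb, the length of all cluster genes but MMP20, 49.4% and 33.1%. The V2 interval includes the share of these short genes. The marked gene was MMP20, with sg3 records from 102598962 to 102599321 (fold enrichment 4.28, -log10 q 8.0) and from 102601118 to 102601491 (5.44, 12.4) in its body.

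The space between the cluster genes was not empty. The span held 7 sg3 records and 2 V2 records, where the mean density of chromosome 11 would give 8.52 and 5.80. Of the sg3 records 4 formed a block between MMP7 and MMP20, from 102562326 to 102566205, which begins 31579 bases upstream of the MMP7 start. The strongest of them ran from 102564409 to 102564896 (fold enrichment 9.58, -log10 q 27.7) and had no V2 partner. Both V2 records lay in the same block, from 102562314 to 102562672 (4.57, 6.2) and from 102565469 to 102566042 (9.42, 19.1), and both overlapped an sg3 record. The remaining sg3 record, from 102747078 to 102747440 (6.10, 10.8), lay between MMP8 and MMP10, 22124 bases from MMP8 and 23062 bases from MMP10. From there on sg3 had no record for 344152 bases, a stretch that holds MMP10, MMP1, MMP3, MMP12 and MMP13, until the record at DCUN1D5. In V2 the stretch without a record was 525602 bases long and held all cluster genes but MMP7.

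**Figure D4:**
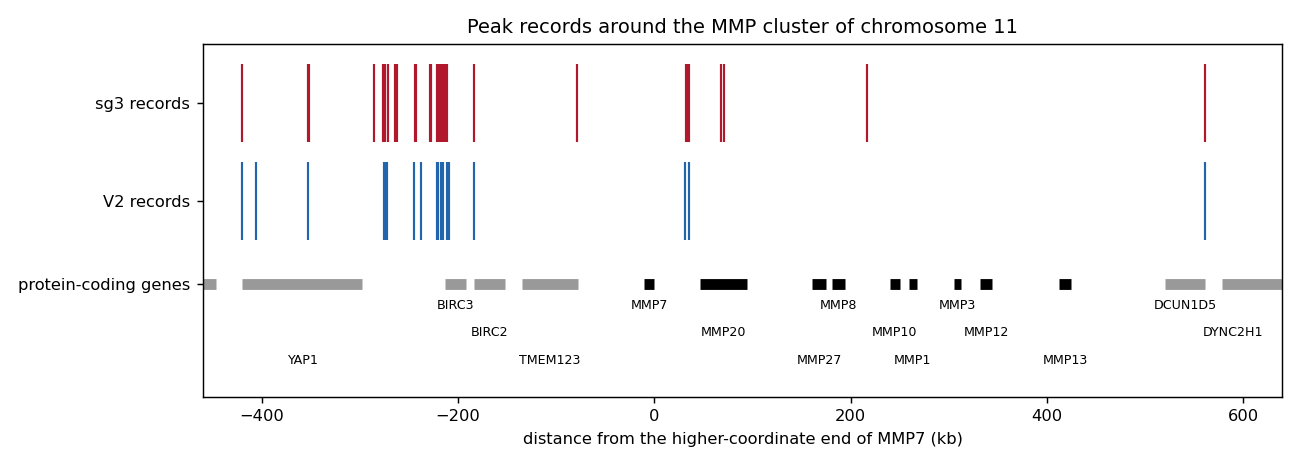
Records of the sg3 list (top) and the V2 list (middle) and protein-coding genes (bottom, MMP genes in black) around the chromosome 11 cluster; x, distance in kb from the higher-coordinate end of MMP7. Records crowd on the side of YAP1 and BIRC3, form a block between MMP7 and MMP20 and are missing from MMP10 to MMP13.

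The sides of the cluster differed. In a stretch of the same length on the MMP7 side, which holds YAP1, BIRC3, BIRC2 and TMEM123, there were 25 sg3 records and 19 V2 records. In a stretch of that length on the MMP13 side there was 1 in each list, at DCUN1D5 (11.96 in sg3, 4.16 in V2).

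The promoters of 3 cluster genes held a match to TGANTCA, a loose form of the AP-1 element that allows any base in the middle. That element is the site of FOS and JUN dimers through which several MMP genes are known to be induced. The match was TGAGTCA in MMP7 and TGAATCA in MMP10 and MMP20. Promoter sequences were at hand for MMP7, MMP8, MMP10, MMP20 and MMP27 of the cluster. The motif reads the same on both strands, and both were covered. It occurred in 4 of the 36 members with a promoter sequence (11.1%), the other being ADAMTS12 (TGAATCA), and in 5.70% of promoters of the same 300 bases over all protein-coding genes. Of the 4 genes 3 are neighbours in the cluster and no interval was computed, so these shares do not show an enrichment. None of these 4 genes had a record within 1 kb of its start in either list, which allows up to 60.2% by the exact interval; over all genes with the motif 37.8% of starts were marked in sg3 and 26.3% in V2. The core GGAA of ETS factors, searched on both strands, occurred in 36 of 36 member promoters and in 95.2% of all. The sequences of MMP7 (chr11:102530698-102530997), MMP10 (chr11:102780579-102780878) and MMP20 (chr11:102625283-102625582), all on the minus strand, are shown with the match to TGANTCA in capitals. It begins 67 bases before the start in MMP7 and in MMP10 and 112 bases before it in MMP20. A match of letters in this window is a description and not evidence of binding.
MMP7: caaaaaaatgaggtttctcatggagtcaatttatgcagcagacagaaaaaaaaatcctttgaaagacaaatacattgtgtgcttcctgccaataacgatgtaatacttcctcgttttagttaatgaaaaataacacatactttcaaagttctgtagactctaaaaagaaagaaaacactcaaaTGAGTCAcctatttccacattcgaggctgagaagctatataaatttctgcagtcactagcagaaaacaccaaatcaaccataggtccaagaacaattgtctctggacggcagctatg
MMP10: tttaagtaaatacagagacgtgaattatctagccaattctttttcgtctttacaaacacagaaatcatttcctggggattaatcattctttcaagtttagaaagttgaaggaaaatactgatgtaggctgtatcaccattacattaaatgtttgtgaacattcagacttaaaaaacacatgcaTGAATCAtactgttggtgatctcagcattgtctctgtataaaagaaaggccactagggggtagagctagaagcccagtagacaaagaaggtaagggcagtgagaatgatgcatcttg
MMP20: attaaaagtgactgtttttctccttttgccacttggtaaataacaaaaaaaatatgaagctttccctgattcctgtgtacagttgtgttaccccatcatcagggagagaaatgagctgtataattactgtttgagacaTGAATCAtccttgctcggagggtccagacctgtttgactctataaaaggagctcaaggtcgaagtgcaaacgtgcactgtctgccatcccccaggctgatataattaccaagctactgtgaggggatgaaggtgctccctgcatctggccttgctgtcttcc

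ADAMTS genes were the least marked, with records at 5 of 19. ADAMTS17, a gene mutated in a Weill-Marchesani-like syndrome, had the record with the highest fold enrichment of all members. This sg3 record lay in its body on chromosome 15, from 100247613 to 100248755, with values of 14.95 for fold enrichment and 49.0 for -log10 q, 94055 bases from the start, and had no V2 partner. At its start both lists had a record, from 100340872 to 100341995 in sg3 (5.53, 26.6) and from 100341477 to 100341943 in V2 (3.12, 10.2). ADAMTS10, a microfibril-associated member of the same syndrome family, had a start record in sg3 alone (8610529 to 8610970 on chromosome 19, 4.12, 11.2) and a record near its 3' side in both lists (4.70 in sg3, 4.69 in V2). ADAMTS5, the main aggrecanase of mouse cartilage, had a body record in both lists, from 26937828 to 26938314 on chromosome 21 in sg3 (5.53, 20.5) and from 26937732 to 26938352 in V2 (3.99, 8.3).

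Of the 7 aggrecanase-type genes, ADAMTS1, ADAMTS8, ADAMTS9, ADAMTS15 and ADAMTS20 had no record in either list. ADAMTS4 was in the sg3 list alone, by a flanking record. The record near ADAMTS13, the protease of von Willebrand factor, was also in sg3 alone and lay over CACFD1, with its summit 348 bases from the CACFD1 start. The 3 procollagen N-proteinase genes ADAMTS2, ADAMTS3 and ADAMTS14 had none, which allows a share of up to 70.8% by the exact interval. ADAMTS6, ADAMTS7, ADAMTS12, ADAMTS16, ADAMTS18 and ADAMTS19 had none either. ADAMTS7 has several pseudogene copies, so its absence from the lists is uncertain, and the same holds for the similar pair ADAM20 and ADAM21. The other MMP genes without a record were MMP21 and MMP26.

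At gene starts the share of members was below that of all genes in sg3, and in V2 the interval included it. Of the 36 members with a known start, 9 had an sg3 record within 1 kb of it (25.0%, 95% CI 12.1 to 42.2%), against 47.1% of 15808 protein-coding genes. A V2 record was there in 6 (16.7%, 95% CI 6.37 to 32.8%), against 28.0%. Of the 36, the 6 in both lists were ADAM8, ADAM10, ADAM17, ADAM23, ADAMTS17 and MMP14. The 3 in sg3 alone were ADAM15, ADAM19 and ADAMTS10, while 0 of 36 were in V2 alone and 27 of 36 in neither. Over all 15808 starts these shares were 27.5%, 19.5%, 0.443% and 52.5%. The members thus had the larger share in neither list and the smaller share in the other classes. Promoters were called CpG-rich when G+C was at least 55% and the observed over expected CG ratio at least 0.65. Of the 20 members with a CpG-rich promoter 7 were marked in sg3 (35.0%, 95% CI 15.4 to 59.2%), against 63.4% of all genes of that class, and 5 in V2 (25.0%, 95% CI 8.66 to 49.1%), against 38.6%. Of the 16 other members 2 were marked in sg3 (12.5%, 95% CI 1.55 to 38.3%), against 25.5%, and 1 in V2 (6.25%, 95% CI 0.158 to 30.2%), against 14.0%. Of these 4 intervals, that of CpG-rich promoters in sg3 leaves out the share of all genes and the other 3 include it. The share of CpG-rich promoters was 55.6% among the members and 56.9% among all.

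**Figure D5:**
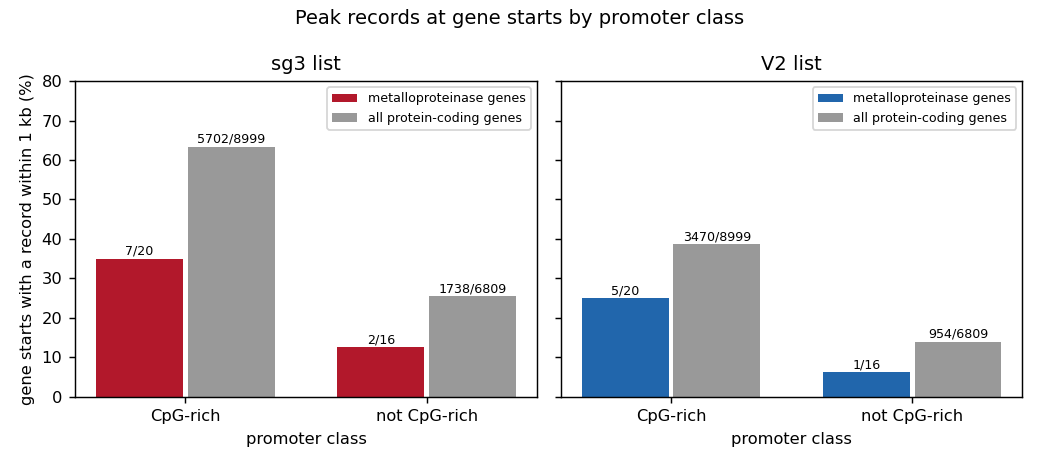
Percent of gene starts with a record within 1 kb, by promoter class, in the sg3 list (left) and the V2 list (right); coloured bars are metalloproteinase genes, grey bars all protein-coding genes, and the numbers are marked over all starts. The coloured bars are below the grey ones, but with 20 and 16 metalloproteinase genes per class the exact intervals include the grey bar except for CpG-rich promoters in sg3 (35.0% against 63.4%).

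The 39 members without a record were often far from one. Their distance to the nearest sg3 record had a median of 69152 bases, from 8965 bases for MMP17 to 1401932 bases for MMP16. To the nearest V2 record the median was 145754 bases, from 14782 bases for MMP17 to 1429889 bases for MMP16. Distances for the other genes without a record were not computed, so these values have no background.

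Of 35 related genes, chosen as inhibitors, activators, partners and relatives of the proteases, 18 had an sg3 record (51.4%, 95% CI 34.0 to 68.6%) and 14 a V2 record (40.0%, 95% CI 23.9 to 57.9%). These intervals overlap those of the members and include the shares of all protein-coding genes. Over the gene itself 15 had a record in sg3 (42.9%, against 51.9% of all) and 11 in V2 (31.4%, against 33.7%). The partners that carry ADAM17 to the surface, RHBDF1, RHBDF2 and FRMD8, were all in both lists, and the best -log10 q at FRMD8 was 117.1 in sg3 and 80.8 in V2. Of the 6 tetraspanins that pair with ADAM10, 4 were in both lists (TSPAN10, TSPAN14, TSPAN15 and TSPAN17), with 21 sg3 and 11 V2 records at TSPAN14. In each list 3 of these 6 had a record over the gene itself. Of 6 inhibitors, TIMP2 (67.8 in sg3, 28.7 in V2) and A2M (28.6, 15.8) were in both lists, while TIMP1, TIMP3, TIMP4 and RECK had no record. In each list 1 of the 6 inhibitors had a record over the gene itself. FURIN, a convertase that removes the prodomain of many ADAMs and membrane-type MMPs, was in both lists (30.2, 6.8), as was PCSK5, and PCSK7 was in sg3 alone. Of 7 ADAMTS-like genes 3 were in both lists, among them THSD4 with 57 sg3 and 30 V2 records. Of 9 other metzincins BMP1 and MEP1A were in sg3 alone, where 1 of the 9 had a record over the gene itself, and the rest had no record.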

How the data were processed

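H3K9la ChIP-seq of KYSE30 cells was deposited as 1 peak list per arm; the V2 list is attached to the V2 input sample, and which V2 library it was called on is not stated. Per the submitters' processing notes, the tools were MACS2 2.2.9.1, Bowtie2 2.5.1, SAMtools 1.18, Trim Galore 0.6.10 and FastQC 0.12.1, and the build hg38. The sources used here do not give the MACS2 command, the control behind each list or the treatment of reads with several alignments. The deposited fold enrichment (a ratio), -log10 p, -log10 q and summit offset are the authors' values in narrowPeak layout. The deposited integer score equals 10 times the -log10 q without decimals in 99.98% of sg3 and 99.82% of V2 records and was not used; the authors' -log10 p-value was not used either.

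Records were matched to RefSeq GRCh38.p14 genes with Python 3.11.15, pandas 2.3.3 and NumPy 2.4.6, and intervals computed with SciPy 1.17.1; the interval functions were checked against direct counting on simulated data. Records outside chromosomes 1 to 22 and X, 3.04% of sg3 and 2.66% of V2 records, were not assigned. Gene starts come from the RefSeq promoter table, which matched 36 members; the other 26 have no start or strand here. Protein sequences were not used here, so the planned search for the zinc-binding motif was not run and role groups follow background knowledge.

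The members, gene lists and role groups were chosen with earlier results of these data known. Named genes were the chromosome 11 cluster, the 5 strongest members per family and list, the 5 with the most sg3 records, any member in V2 alone and 8 set by name (MMP2, MMP9, MMP14, ADAM9, ADAM10, ADAM17, ADAMTS1 and ADAMTS4); other members are named to account for all 62, and the CpG classes and the ADAMTS2 sequence were chosen after values were seen. The values of the ADAMTS4 record are not reported here. Alternatives changed the window, the placing point, thresholds on -log10 q and fold enrichment, list length, merging and the overlap called shared.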

Additional observations from a re-analysis of the deposited data

How the results depend on the processing

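Over 12 counts and shares, 105 of 120 recalculated values were within 1.5 times the count given above or inside the 95% interval of the share, and 15 were not; a count could thus change by up to that factor and still be among the 105. Counting records over the gene alone gave 5 genes in sg3 only, against 8. At a -log10 q of at least 10 there were 46 sg3 records at the members, 78.1% of V2 records overlapped an sg3 record and the cluster held 1 V2 record. At a fold enrichment of at least 4 there were 2 genes in V2 only, and the overlapping portions were 39.6% of sg3 and 68.8% of V2 records. Merging records within 1 kb gave 46 sg3 and 28 V2 regions, and 4 sg3 regions in the cluster. Requiring an overlap of 50% of both records gave 36.6% of sg3 and 57.8% of V2 records. With records over genes outside the families left out, an alternative chosen after seeing the data, 15 members had an sg3 record, 4 in sg3 only and 1 in V2 only; 24.2% of members and 19.3% of all protein-coding genes then had an sg3 record, and 19.4% and 13.9% a V2 record, so the shortfall of the members against all genes was not seen under it. That setting removes records over host and neighbour genes for the members but also records over the gene itself for every other gene, so the portions of all genes are low by construction. Under a threshold of 10 on -log10 q 33.9% of members and 52.6% of all genes had an sg3 record, and 19.4% and 34.4% a V2 record. Windows around the gene do not enter the counts at gene starts. No paired analysis was possible because each arm has 1 library and no result comes from a test. Read depth is not stated, so a missing record may lie below the calling threshold.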

Other observations

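The symbols set aside, MMP24OS and MMP24-AS1-EDEM2, were marked in both lists, with 2 sg3 and 4 V2 records at MMP24OS and 5 sg3 and 4 V2 records at MMP24-AS1-EDEM2. Strong records were rarer at the members than over all genes: 11 of 62 (17.7%) had an sg3 record with a -log10 q of at least 20, against 38.7% of all protein-coding genes, and 6 (9.68%) had such a V2 record, against 20.7%.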
